A study of Mus musculus with 18 samples.

Results

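Common myeloid progenitors (CMPs) were compared with LSK cells, the compartment of haematopoietic stem and early progenitor cells, within NZBW/F1 mice. The comparison took all samples of this strain, which were 12 of the 18 samples of the series: 6 CMP samples and 6 LSK samples. They were chosen by their sample labels alone, with 3 samples in each of 4 groups, namely LSK and CMP of F1-P mice, labelled prediseased and young, and LSK and CMP of F1-L mice, labelled lupus and old. NZBW/F1 is the F1 cross of NZB and NZW mice, and its females develop a lupus-like autoimmune disease with age. All samples were bulk mRNA sequencing of sorted bone marrow cells of female mice with no treatment in the labels. The C57BL/6 (B6) LSK samples of the same series, 3 young and 3 old, served as another reference. The series holds no B6 CMPs, so cell type and strain cannot be told apart where NZBW/F1 CMPs are set against B6 LSK. In that fit the young B6 samples took the place of F1-P LSK and the old ones that of F1-L LSK. F1-P and F1-L mice differ in age as well as in disease, so age and disease cannot be told apart between them. The labels do not say whether the samples of a group came from separate mice, so the p-values measure the spread between these samples, which may be technical.

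LSK cells are named for their surface phenotype, lineage-negative with Sca-1 and c-Kit. They include the long-term and short-term haematopoietic stem cells and the multipotent progenitors, and lymphoid gene expression is known to begin within them. CMPs lie further along the myeloid branch and give rise to megakaryocyte-erythroid and granulocyte-monocyte progenitors. Erythroid commitment is driven by the transcription factors GATA1 and KLF1 and by signalling through the erythropoietin receptor, granulocyte-monocyte commitment by PU.1 and the C/EBP factors, and stem cell maintenance by factors such as MECOM, HLF, MEIS1 and the HOX proteins. In mice the classical CMP gate excludes Sca-1, whereas the methods of this study write the CMP gate as the LSK gate with CD34 added, Sca-1 included.

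LSK and CMP values came from separately made tables, so cell type and table cannot be told apart. Reads per library were 23772252 to 27288453 in the LSK samples and 20001328 to 24761060 in the CMP samples, and the genes kept for the comparison held 15055496 to 24693298 of them. The share of immunoglobulin genes was 16.8 to 36.6% in LSK of NZBW/F1 mice and 0.0152 to 0.255% in CMPs, and these genes were left out. After joint scaling, levels are given as CPM. This is the reads of a gene per 1000000 reads of the genes kept in its library, with that total scaled by its TMM normalization factor. Differences are log2 fold changes of CPM + 1, CMP minus LSK, with the standard error (SE) of limma's fit with stage (F1-P or F1-L) as covariate. A gene was called different when its limma p-value adjusted by the Benjamini-Hochberg method was at most 0.05 and its fold change above 1.5.

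The sort markers were examined first. Kit, the gene of c-Kit, ranged over 289, 396 and 501 CPM (lowest, median and highest of 6) in LSK and over 447, 531 and 699 CPM in CMPs. It was present in all 12 samples, and the difference of 0.50 ± 0.11 (SE) missed the fold threshold. Ly6a (ENSMUSG00000075602.10, chr15:74994877-74998031 on the minus strand of GRCm38), the gene of Sca-1, was at 408, 989 and 999 CPM in the 3 F1-P LSK samples and at 316, 389.5 and 506 CPM in the 3 F1-L LSK samples. In CMPs it was at 1.34, 5.20 and 7.10 CPM in F1-P and at 3.52, 1.19 and 4.17 CPM in F1-L. The 6 LSK samples were all far above the 6 CMP samples, with a log2 fold change of -6.99 ± 0.34 (limma adjusted p = 6.80e-08), so the libraries labelled CMP carried almost no Sca-1 mRNA although the gate is written as Sca-1 positive. In B6 LSK, Ly6a was at 39.0, 51.1 and 119.8 CPM (lowest, median and highest of 6), also above every CMP sample.

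Cd34, the marker that the CMP gate adds, was at 190.3, 299 and 331 CPM in LSK and 162, 308 and 607 CPM in CMPs, and the difference of 0.09 ± 0.27 missed the threshold and turned negative under scaling by total reads. Flt3 and Il7r, receptors of early lymphoid cells, were both lower in CMPs, Flt3 by -0.91 ± 0.29 and Il7r by -2.76 ± 0.25 on the log2 scale. Il7r was at 69.7, 111 and 179 CPM in LSK and 6.24, 15.5 and 41.0 CPM in CMPs, with no overlap. The gate also excludes CD11b, Gr-1 and CD16/32. Of genes related to these markers, Itgam, Ly6g and Fcgr3 were detected in every library, and none of these 3 passed the test. Itgam was at 1.68, 4.87 and 49.7 CPM in CMPs and 6.23, 17.7 and 76.8 CPM in LSK. Fcgr2b (0.17) and Fcgr4 (-0.59) were not called either. The Ly6 family genes Ly6c1 (-1.85) and Ly6c2 (-2.88) were called lower in CMPs, but both had a positive sign against B6 LSK (1.17 and 0.21). Over all genes tested, 18.8% were called higher and 27.0% lower in CMPs. Of the 15 sort genes, 0 were called higher and 7 lower in CMPs, and the count of lower calls became 11 without F1-P CMP replicates 2 and 3, the libraries with raised neutrophil genes described further on.

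**Figure D1:**
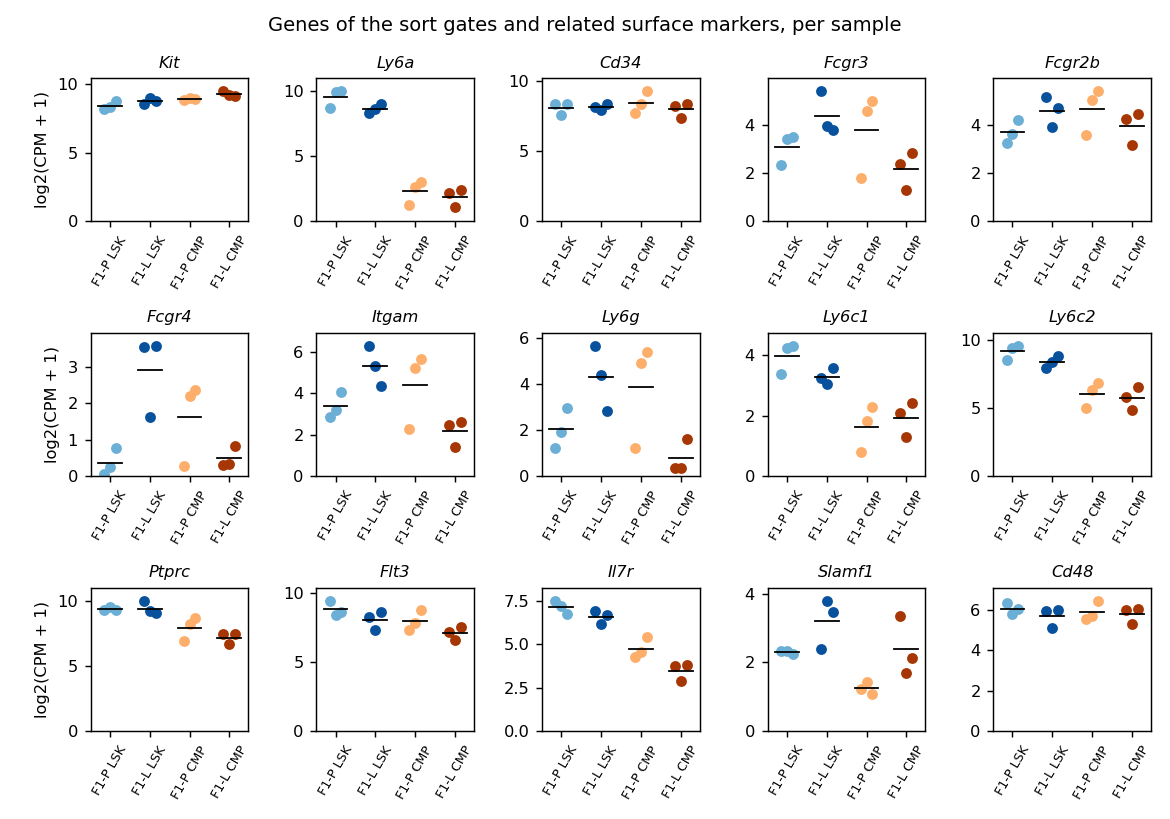
Levels of 15 sort and surface marker genes as log2(CPM + 1) in the 12 samples, 1 panel per gene with its own axis, with a point per sample and a line at the mean of each group of 3. Ly6a lies at 316 CPM or more in LSK and at 7.10 CPM or less in CMPs, while Kit, Cd34 and Cd48 overlap between the cell types.

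Of the 24 gene lists, the erythroid list had the highest median difference in favour of CMPs. Across the 14523 genes tested, 2731 (18.8%) were called higher and 3923 (27.0%) lower in CMPs, with a median log2 fold change of -0.06 over all genes. Scaling by total reads moved that median to -0.20 and the calls to 2045 higher and 4526 lower, and list medians are read against it. Against that background, 25 of 29 tested erythroid genes were called higher and 2 lower, with a median of 2.80. At the top stood Car1 (ENSMUSG00000027556.15, chr3:14766216-14808368, minus strand), a carbonic anhydrase of early erythroid cells, at 73.5, 50.7 and 137 CPM in F1-P LSK and 184, 98.8 and 127 CPM in F1-L LSK. It was at 3066, 2048 and 1158 CPM in F1-P CMPs and 2303, 3694 and 2607 CPM in F1-L CMPs, with a difference of 4.49 ± 0.28 (limma adjusted p = 1.94e-07). Every CMP sample exceeded every LSK sample, and the difference from B6 LSK was larger still, at 6.08.

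The erythroid master regulators were raised together. Gata1 (chrX:7959260-7978071, minus strand) was at 8.51, 6.99 and 15.3 CPM in F1-P LSK and 20.1, 21.5 and 20.7 CPM in F1-L LSK, and at 279, 166 and 108 CPM in F1-P CMPs and 208, 291 and 203 CPM in F1-L CMPs. Klf1 (chr8:84901928-84905291, plus strand), which activates globin and red cell membrane genes, was at 9.23, 18.0 and 29.1 CPM in LSK and 133, 230.04 and 349 CPM in CMPs. Epor (chr9:21958897-21963506, minus strand), the erythropoietin receptor, was at 6.39, 14.7 and 21.9 CPM in LSK and 76.5, 144 and 196 CPM in CMPs. None of these ranges overlapped, which was also true of 5343 of the 6654 genes called (80.3%). The log2 fold changes were 3.71 ± 0.24 for Gata1, 3.74 ± 0.26 for Klf1 and 3.34 ± 0.23 for Epor, and against B6 LSK they were 3.81 for Gata1 and 4.57 for Klf1. Tal1 and Zfpm1, partners of GATA1, were higher by 1.81 and 1.38, whereas Gata2, which acts earlier, did not pass the test at -0.31 ± 0.21.

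Promoter sequences are shown for Klf1, Epor and Pklr, because each holds the core GATA motif close to its start, the element that GATA factors recognise. The windows run from 250 bases before to 50 bases after the gene start in RefSeq (GRCm38.p6), are written 5′ to 3′ on the strand of the gene, and carry GATAAG or its reverse complement CTTATC in capitals. The Klf1 window lies at chr8:84901732-84902031 on the plus strand, with the motif starting at -81 relative to the gene start. The Epor window lies at chr9:21963527-21963826 on the minus strand, with the motif at -55. The Pklr window lies at chr3:89135892-89136191 on the plus strand, with the motif at -34. Pklr has another window, further downstream, without the motif.
Klf1: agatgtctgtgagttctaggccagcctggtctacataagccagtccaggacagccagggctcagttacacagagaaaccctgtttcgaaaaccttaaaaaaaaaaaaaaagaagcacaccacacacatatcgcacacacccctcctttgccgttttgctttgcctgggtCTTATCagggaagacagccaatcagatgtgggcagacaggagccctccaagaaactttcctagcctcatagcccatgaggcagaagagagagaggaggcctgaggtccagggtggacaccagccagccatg
Epor: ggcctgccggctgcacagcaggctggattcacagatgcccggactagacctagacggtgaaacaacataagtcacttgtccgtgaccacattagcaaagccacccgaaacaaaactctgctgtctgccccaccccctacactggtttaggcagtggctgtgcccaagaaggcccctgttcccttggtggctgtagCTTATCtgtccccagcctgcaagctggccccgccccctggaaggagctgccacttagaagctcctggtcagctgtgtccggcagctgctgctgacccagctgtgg
Pklr: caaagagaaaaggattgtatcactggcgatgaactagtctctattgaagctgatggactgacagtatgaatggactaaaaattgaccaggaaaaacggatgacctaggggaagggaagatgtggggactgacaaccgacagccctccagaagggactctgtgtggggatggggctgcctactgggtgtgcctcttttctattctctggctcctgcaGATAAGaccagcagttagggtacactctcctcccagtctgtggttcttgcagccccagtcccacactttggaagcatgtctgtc

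GATAAG was searched on both strands and occurred in 2445 of 32851 promoter windows (7.44%). Of the 25 erythroid genes called higher, 23 had a RefSeq window, and 7 of their 31 windows (22.6%) held it: those of Cpox, Epor, Gfi1b, Kel, Klf1, Rhag and Rhd. It was in 0 of 27 windows of the granulocyte-monocyte list, in 1 of 21 of the plasma cell list (4.76%) and in 2 of 25 of the S phase list (8.0%). CACCC, the core of KLF1 sites, was in 57.5% of all windows and in 25 of the 31 erythroid windows (80.6%). It was also in 18 of 25 S phase windows (72.0%), 16 of 27 granulocyte-monocyte windows (59.3%) and 10 of 21 plasma cell windows (47.6%). TTGCNNAA, a C/EBP-type motif, was in 10.8% of all windows and in 2 of the 31 erythroid windows (6.45%). It was in 6 of 27 granulocyte-monocyte windows (22.2%), 6 of 21 plasma cell windows (28.6%) and 3 of 25 S phase windows. The 3 motifs were searched separately on both strands, so matches of different motifs may overlap. They were picked with the expression results known, and a match describes the letters of a window and does not show a binding site.

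Several of the largest single-gene gains in CMPs were genes of the red cell membrane and surface, a group picked from these gains and not from a list of its own. Ermap, which encodes the Scianna blood group protein, was at 26.0, 49.1 and 72.7 CPM in LSK and 526, 913 and 1349 CPM in CMPs (log2 fold change 4.30 ± 0.26). Aqp1, the water channel of red cells, was at 39.7, 98.8 and 123 CPM in LSK and 821, 1468 and 2086 CPM in CMPs (4.14 ± 0.25), and Add2, the beta subunit of the membrane skeleton protein adducin, went from 6.46, 16.3 and 21.7 CPM to 153, 254 and 424 CPM (4.16 ± 0.31). The Rh and Kell blood group genes Rhd, Rhag and Kel were higher by 3.91, 3.92 and 3.92. Other genes among the 10 with the largest gain were the sodium pump subunit Atp1b2 (4.35 ± 0.25), the erythroid pyruvate kinase Pklr (4.30 ± 0.29), the sphingosine kinase Sphk1 (4.23 ± 0.27), the glutamine transporter Slc38a5 (4.07 ± 0.26), the sulphate transporter Slc26a1 (4.04 ± 0.27) and Cldn13 (4.02 ± 0.30). Non-overlapping ranges were a condition for being among these 10 genes, as was a mean CPM of at least 5. The list members lower in CMPs were Cnrip1 (-1.67 ± 0.16) and Apoe (-0.64 ± 0.25). The Apoe call was lost, among other settings, without F1-P CMP replicate 1 and without any 1 of the 6 F1-L libraries, at log2 fold changes of -0.63 to -0.48.

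**Figure D2:**
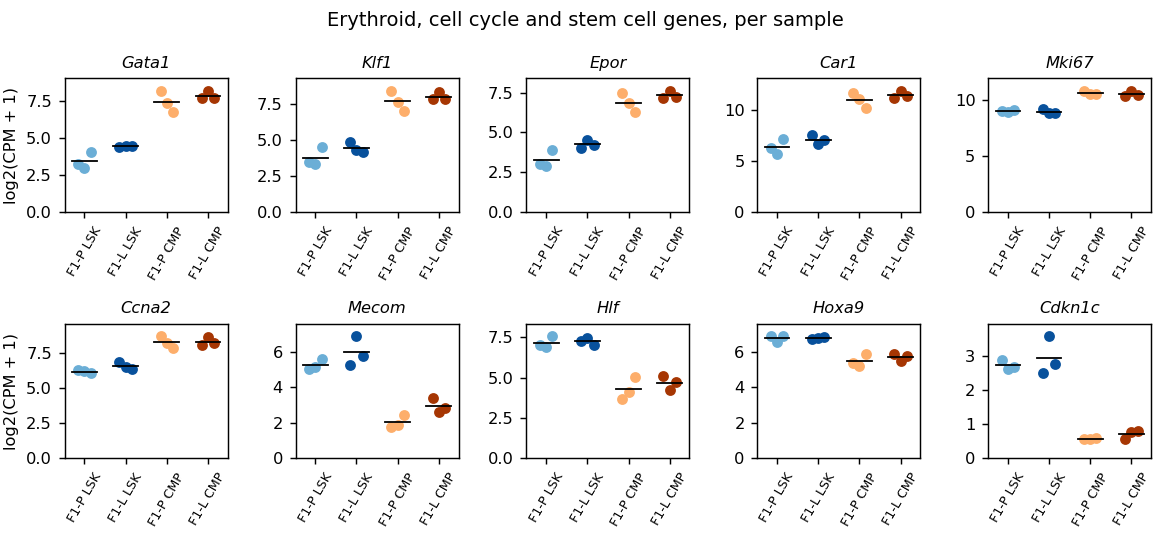
Levels as log2(CPM + 1) of 4 erythroid genes (top row, left), 2 cell cycle genes (Mki67, Ccna2) and 4 genes of stem cells and quiescence (Mecom, Hlf, Hoxa9, Cdkn1c), with a point per sample and a line at the mean of each group of 3. In every panel the 6 LSK and the 6 CMP samples are separate, higher in CMPs for the erythroid and cell cycle genes and lower for the others. Of all genes called, 80.3% were separate in this way.

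Haem synthesis genes moved with the erythroid list, which shares Cpox and Tmem14c with them. Of 14, 11 were called higher in CMPs and 0 lower, with a median of 1.58. Cpox, which makes protoporphyrinogen, was at 63.6, 86.3 and 100.2 CPM in LSK and 313, 444 and 756 CPM in CMPs, and Fech, the last enzyme of the pathway, at 37.7, 54.1 and 84.7 and 159, 178 and 293 CPM. Their log2 fold changes were 2.56 ± 0.20 and 1.88 ± 0.21, and neither gene overlapped between cell types. Later products were split. The membrane skeleton gene Sptb (3.63 ± 0.33) was higher, and 6 of 12 globin and maturation genes were called higher and 0 lower, with 1 lower call appearing without F1-P LSK replicate 1.

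The globins themselves did not pass the test. Hbb-bs was at 15.3, 19.4 and 1653 CPM in F1-P LSK, 79.4, 102 and 79.8 CPM in F1-L LSK, 85.3, 158 and 520.1 CPM in F1-P CMPs and 11.3, 47.7 and 31.8 CPM in F1-L CMPs. Hba-a1 was at 9.95, 10.7 and 931 CPM in F1-P LSK and 15.8, 31.2 and 56.4 CPM in F1-L CMPs. The highest library for both was F1-P LSK replicate 3, and the cell types overlapped. The near-identical globin copies could also have split reads between them in the authors' counting. Hbb-bs and Hba-a1 were picked after their values were seen.

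Proliferation genes were the other broad gain. Of 26 S phase genes, 24 were called higher and 0 lower (median 1.29), and of 26 G2 and M phase genes 25 were higher and 0 lower (median 1.47). Mki67, the proliferation marker Ki-67, was at 532, 479 and 542 CPM in F1-P LSK, 587, 468 and 449 CPM in F1-L LSK, 1833, 1528 and 1456 CPM in F1-P CMPs and 1347, 1803 and 1380.2 CPM in F1-L CMPs. The ranges did not overlap, and the difference was 1.61 ± 0.10 (limma adjusted p = 2.38e-07). The cyclin gene Ccne1, which drives entry into S phase, went from 22.7, 25.5 and 29.5 CPM to 75.2, 122 and 212 CPM, and Cdc6, which loads the replicative helicase, from 42.1, 48.6 and 55.3 CPM to 128, 209.8 and 261 CPM. Mcm10 was higher by 1.81 ± 0.12, and the mitotic genes Hmmr, Ccna2 and Ccnb1 by 1.95 ± 0.16, 1.90 ± 0.15 and 1.88 ± 0.16. Against B6 LSK, S phase genes were again 23 higher and 0 lower with a smaller median of 0.85, and G2 and M phase genes 24 higher and 0 lower with a median of 0.92, on a background of 2876 of 14536 genes called higher (19.8%) and 3728 called lower (25.6%). B6 LSK had a summed level of the S phase genes of 3792 to 5307 RPM (reads of the list per 1000000 joined reads), against 2661 to 3867 in NZBW/F1 LSK and 6265 to 8211 in CMPs.

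The G1 genes were mixed, with 6 of 20 called higher and 7 lower (median 0.28), where 18.8% of all genes were higher and 27.0% lower. The kinases Cdk6 (1.21 ± 0.17) and Cdk4 (0.92 ± 0.12) and E2f4 (1.53 ± 0.15) were higher in CMPs. Cdkn1c, which encodes the cell cycle inhibitor p57 and is a marker of quiescent stem cells, was at 4.71, 5.60 and 11.02 CPM in LSK and 0.463, 0.487 and 0.730 CPM in CMPs (-2.21 ± 0.16). Its CMP level rested on 9 to 14 reads per library, and the groups did not overlap. Cyclin D1, Ccnd1, was lower by -0.96 ± 0.21, and Mycn by -2.08 ± 0.20. With B6 LSK as reference only 2 G1 genes were called higher, and the differences of Cdk6 and Cdk4 shrank to 0.53 and 0.48 and were no longer called.

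Stem cell genes, the sort gene Ly6a among them, were lower in CMPs in 24 of 30 cases and higher in 2, with a median of -1.46. Mecom (Evi1) was at 31.4, 33.6 and 46.2 CPM in F1-P LSK and 37.1, 116 and 52.9 CPM in F1-L LSK, and at 2.37, 2.65 and 4.40 CPM in F1-P CMPs and 9.57, 4.99 and 6.00 CPM in F1-L CMPs. The 6 LSK samples were all above the 6 CMP samples, and the difference was -3.12 ± 0.26 (limma adjusted p = 1.06e-06), or -3.46 against B6 LSK. Procr, the gene of the endothelial protein C receptor used to sort stem cells, was at 19.6, 25.6 and 35.2 CPM in LSK and 0.618, 2.36 and 3.14 CPM in CMPs, and Hlf at 119, 142 and 188 and 11.9, 21.7 and 33.1 CPM. Fgd5, Robo4 and Prdm16 were lower by -3.01, -2.37 and -2.28. Meis1, a partner of the HOX proteins, was lower by -1.36 ± 0.22.

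The stem cell genes higher in CMPs were Gfi1b (2.66 ± 0.24), which is also an erythroid and megakaryocytic repressor, and Vwf (1.01 ± 0.41), which encodes von Willebrand factor of platelets and endothelium. Gfi1b did not overlap between the cell types. Vwf did overlap, and its call was lost without F1-L CMP replicate 1, without F1-L LSK replicate 1 or 3 and without any 1 of the 3 F1-P LSK libraries, at log2 fold changes of 0.82 to 1.03. The Hox A and B genes were lower almost as a block, with 11 of 12 called lower and 0 higher (median -1.26). Hoxa9 was at 94.1, 114 and 118 CPM in LSK and 35.8, 49.1 and 59.2 CPM in CMPs (-1.19 ± 0.12). Hoxa3 and Hoxa5 were lower by -1.72 ± 0.19 and -1.70 ± 0.20 without overlap. Hoxb3 was lower by -1.46 ± 0.16 at no more than 2.71 CPM in CMPs. Against B6 LSK the direction was the same, with 27 of 30 stem cell genes and 12 of 13 Hox genes called lower.

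**Figure D3:**
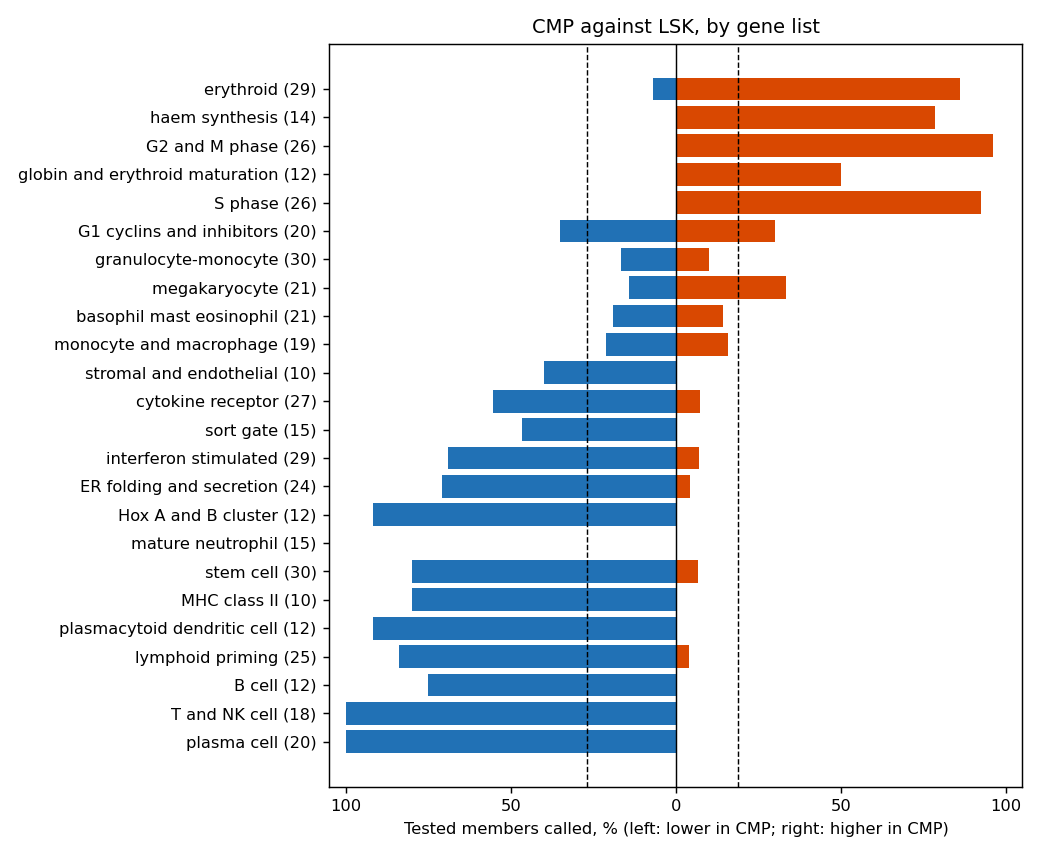
Share of tested members called in each gene list, in percent, with the number tested in brackets, to the right for genes higher and to the left for genes lower in CMPs. Dashed lines mark the shares over all genes, 18.8% higher and 27.0% lower, and the erythroid, haem synthesis, S phase and G2 and M phase lists lie well to the right while plasma cell and T and NK cell genes all lie to the left.

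Genes of lymphoid priming were lower in CMPs in 21 of 25 cases and higher in 1 (median -1.67). Ly6d, a marker of B lineage priming, was at 82.5, 139 and 202 CPM in LSK and 0.619, 1.86 and 7.14 CPM in CMPs (-5.29 ± 0.25). Ikzf3, which encodes the lymphoid factor Aiolos, was lower by -4.83 ± 0.53, and Ccr9, a homing receptor of lymphoid progenitors, by -4.24 ± 0.27. Dntt, the terminal transferase, was at 1551, 524 and 330.3 CPM in F1-P LSK, 213, 276 and 220.5 CPM in F1-L LSK, 174, 217 and 263 CPM in F1-P CMPs and 114, 73.2 and 195 CPM in F1-L CMPs, so the cell types overlapped and F1-P LSK replicate 1 stood apart. Rag1, of the antigen receptor recombinase, was at 15.6, 41.5 and 196 CPM in LSK and 2.44, 7.35 and 22.8 CPM in CMPs, again with some overlap, and both genes were called lower (-1.29 ± 0.34 and -2.44 ± 0.37). The member higher in CMPs was Tcf3 (0.67 ± 0.11), an E protein used throughout haematopoiesis, and its call was lost with scaling by total reads. Without F1-P CMP replicate 2 the number called higher was 2.

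Markers of mature lymphoid cells were also far higher in LSK of NZBW/F1 mice. The gates as written exclude B220, and also CD16/32 and CD11b, which NK cells can carry, and they name no marker particular to T or plasma cells. All 20 plasma cell genes tested were lower in CMPs (median -4.12), as were all 18 T and NK cell genes (median -3.56), 9 of 12 B cell genes (median -1.99) and 11 of 12 plasmacytoid dendritic cell genes (median -1.52). Jchain (ENSMUSG00000067149.6, chr5:88519809-88527891, minus strand), the joining chain of polymeric antibodies, was at 14591, 37639.7 and 34410.1 CPM in F1-P LSK and 8936, 9126 and 12161 CPM in F1-L LSK. In CMPs it was at 16.5, 77.3 and 149 CPM in F1-P and 8.57, 3.26 and 14.8 CPM in F1-L. This was the difference of greatest size among the genes the text names, -9.50 ± 0.52 (limma adjusted p = 9.22e-08), with the cell types far apart. Against B6 LSK it was -4.94. In these bulk samples, fewer cells of a type and less RNA per cell cannot be told apart.

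The plasma cell list holds regulators as well as genes of antibody secretion, and both kinds were among the lower genes. Xbp1, the factor of the unfolded protein response, was at 830.5, 1151 and 2583 CPM in LSK and 57.1, 84.3 and 110.1 CPM in CMPs (-4.04 ± 0.25), and the plasma cell factors Irf4 and Prdm1 were lower by -5.87 ± 0.53 and -5.74 ± 0.30. Mzb1, an antibody secretion chaperone, was at 175, 251 and 560.4 CPM in LSK and 0.706, 1.73 and 5.57 CPM in CMPs, and Derl3 at 139, 195 and 477 and 0.434, 0.939 and 2.41 CPM. Pou2af1, a B cell coactivator, was lower by -6.40 ± 0.48. Il2rb (-5.97 ± 0.41), Hid1 (-5.79 ± 0.26) and Epcam (-5.87 ± 0.22) completed the 10 genes with the largest excess in LSK, together with Ly6a. Epcam rested on 2 to 10 reads per CMP library. The summed level of the plasma cell list was 20434, 52214 and 47230.3 RPM in F1-P LSK and 14380, 16011 and 20179.7 in F1-L LSK. It was 815 to 3664 in B6 LSK and 446 to 911 in CMPs, so every NZBW/F1 LSK sample lay above both. In every LSK sample all 20 genes had reads, and in CMPs at most 1 was at 0.

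For genes of endoplasmic reticulum folding and secretion the result depended on the reference. With NZBW/F1 LSK as reference, 17 of 24 were called lower in CMPs and 1 higher (median -0.98). With B6 LSK as reference, 1 was lower and 4 were higher (median 0.34). Sel1l, which takes part in protein degradation from the endoplasmic reticulum, was lower by -3.46 ± 0.23 against NZBW/F1 LSK and by only 0.11 (not called) against B6 LSK, and Herpud1 and Ero1lb were lower by -2.34 ± 0.22 and -2.02 ± 0.23 against NZBW/F1 LSK. Canx, the chaperone calnexin, was the member higher in CMPs (0.91 ± 0.07). Xbp1 was lower than in B6 LSK by -0.86. The part of plasma cell RNA in the lower calls of this list was not tested.

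For the plasma cell, the T and NK cell and the B cell lists the medians lay nearer to 0 with B6 LSK as reference, the B cell median at -1.23. The medians of the plasmacytoid dendritic cell and MHC class II lists lay farther from 0, at -2.16 and -1.92. The plasmacytoid dendritic cell list summed to 563 to 919 RPM in NZBW/F1 LSK and 595 to 1078 in B6 LSK. The erythroid median lay farther from 0, and the lymphoid priming median moved little, from -1.67 to -1.74. Among the lymphoid genes named above, Ly6d (-4.04), Ccr9 (-3.13), Ikzf3 (-1.83) and Il7r (-2.32) lay nearer to 0 against B6 LSK. Flt3 (-1.84) lay farther from 0, and Tcf3 (0.69) hardly moved. Against B6 LSK, 14 of 19 plasma cell genes were lower and 1 higher (median -1.75), 16 of 18 T and NK cell genes were lower (median -1.37), 22 of 25 lymphoid priming genes were lower (median -1.74) and 25 of 29 erythroid genes were higher (median 3.31). Among T and NK cell genes, Ncr1, the receptor NKp46, was at 48.8, 80.1 and 133 CPM in NZBW/F1 LSK and 0.0543, 0.493 and 2.49 CPM in CMPs (-5.58 ± 0.28), and Klrb1c was lower by -4.64 ± 0.24. The T and NK cell list summed to 397 to 910.3 RPM in NZBW/F1 LSK, 119 to 252 in B6 LSK and 8.50 to 62.9 in CMPs. The antigen presentation genes of the MHC class II list were lower in 8 of 10 cases (median -1.50), led by the invariant chain Cd74 (-5.74 ± 0.49), H2-Eb1 (-3.12 ± 0.41) and H2-Ab1 (-2.94 ± 0.40). Siglech, a plasmacytoid dendritic cell receptor, was lower by -2.61 ± 0.57, with overlap between cell types.

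Granulocyte-monocyte genes did not share one direction. Of 30, 3 were called higher and 5 lower in CMPs, shares below those of all genes, with a median of 0.17. The stages differed within this pooled count. Within F1-P 12 were higher and 4 lower (median 0.76), where 17.7% of all genes were higher and 23.8% lower, and within F1-L 1 was higher and 11 lower (median -0.86), where the shares of all genes were 20.7% and 28.8%. The F1-P count of higher genes depended on single libraries, with 4 without F1-P LSK replicate 2, 5 without F1-P LSK replicate 1 or F1-P CMP replicate 3, 7 without F1-P CMP replicate 2 and 0 without F1-P CMP replicates 2 and 3 together, whereas it was 18 without F1-P CMP replicate 1. The F1-L count of lower genes was 5 without F1-L CMP replicate 2 or F1-L LSK replicate 1, and its count of higher genes was 0 without F1-L CMP replicate 1 or 3 or F1-L LSK replicate 2. Against B6 LSK 9 were higher and 7 lower. Mpo, myeloperoxidase of neutrophil granules, was at 487, 276 and 1319.7 CPM in F1-P LSK, 1203, 418 and 1622 CPM in F1-L LSK, 1495, 2803 and 4180.1 CPM in F1-P CMPs and 2347, 1106 and 3432 CPM in F1-L CMPs. CMPs were mostly higher, but F1-L LSK and CMPs overlapped, and the difference was 1.68 ± 0.48. Ctsg, cathepsin G, was higher by 1.77 ± 0.50 and Ap3s1 by 0.79 ± 0.17. The C/EBP family member Cebpb was lower, at 47.7, 78.9 and 92.8 CPM in LSK and 4.99, 11.9 and 23.2 CPM in CMPs (-2.51 ± 0.33), as were the repressor Gfi1 (-1.42 ± 0.27) and the monocyte surface gene Ly6c2 (-2.88 ± 0.35). Ly6c2 was not called against B6 LSK, at 0.21, where its sign was opposite.

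The main myeloid regulators did not pass the test against NZBW/F1 LSK. Spi1, which encodes PU.1, was at 58.8, 82.4 and 143 CPM in LSK and 25.1, 68.9 and 147 CPM in CMPs (-0.46 ± 0.39), Cebpa at 21.4, 56.0 and 113 and 26.0, 51.2 and 88.2 CPM (-0.07 ± 0.40, with a positive sign under the authors' scaling), and Irf8 at -0.40 ± 0.38. The receptor genes Csf1r (1.09 ± 0.55) and Csf3r (-0.54 ± 0.50) and the elastase gene Elane (1.40 ± 0.72) were not called either, with adjusted p-values from limma of 0.0901, 0.345 and 0.0974. With B6 LSK as reference, Spi1 (-0.95) and Csf3r (-1.16) were called lower and Csf1r (1.23) and Elane (2.06) higher, while Cebpa (-0.17) and Irf8 (-0.41) were again not called. Over both stages, the number of granulocyte-monocyte genes called higher also depended on single libraries. It was 8 without F1-L CMP replicate 2, 6 without F1-P LSK replicate 3 and 5 without F1-L LSK replicate 1 or 3, and the number called lower was 10 without F1-P CMP replicates 2 and 3.

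Mature neutrophil genes varied more between libraries than between cell types. S100a8, a calprotectin subunit of neutrophils, was at 53.4, 92.8 and 258 CPM in F1-P LSK and 1877, 859.5 and 369 CPM in F1-L LSK. In CMPs it was at 46.3, 1128 and 1500.4 CPM in F1-P and 16.6, 13.8 and 89.7 CPM in F1-L. F1-P CMP replicates 2 and 3 were as high as the F1-L LSK samples, whereas F1-P CMP replicate 1 and the F1-L CMP samples were low. The granule genes Ltf and Camp had the same order, with Ltf at 54.4, 1068 and 1509 CPM in F1-P CMPs and 11.9, 9.61 and 65.2 CPM in F1-L CMPs, and Camp at 14.9, 389.7 and 509 and 4.67, 4.78 and 29.8 CPM. S100a8, Ltf and Camp were named after their values were seen.

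Across both stages 0 of 15 mature neutrophil genes were called in either direction (median -1.45). Within F1-P 1 was called higher and 0 lower (median 1.97), where 2569 of all genes (17.7%) were higher and 3450 (23.8%) lower, and with the replicate number as a block 5 were called higher. That count was 15 without F1-P CMP replicate 1 and 0 without F1-P CMP replicate 2 or 3 or any 1 of the 3 F1-P LSK libraries. Within F1-L all 15 were lower (median -4.93), where 3008 of all genes (20.7%) were higher and 4181 (28.8%) lower, or 2159 higher and 4936 lower with scaling by total reads. The summed level was 366, 626 and 1542 RPM in F1-P LSK, 15337, 6222 and 2530.4 in F1-L LSK, 321, 6668 and 9056 in F1-P CMPs and 94.6, 65.7 and 454 in F1-L CMPs. It was 576 to 12213 in B6 LSK. Without F1-P CMP replicates 2 and 3 all 15 were called lower in CMPs, a fit in which the remaining F1-P CMP sample is assumed to vary like the other groups. These 2 libraries were picked because they were the F1-P CMP libraries highest in the same genes, so this count follows from the choice and is given as a description only, and the counts without them for other myeloid lists and the sort genes share that limit.

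**Figure D4:**
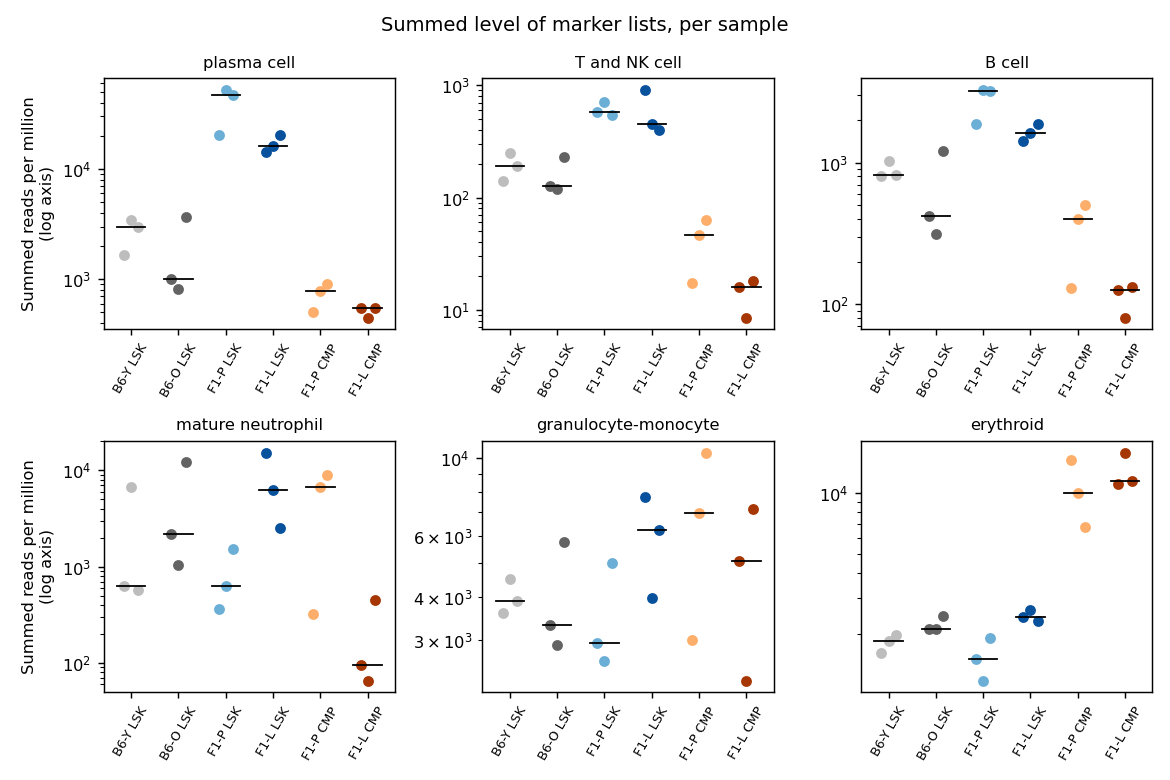
Summed level of 6 marker lists in each library, in RPM (reads of the list per 1000000 joined reads) on a logarithmic axis, with a point per sample and a line at the median of each group of 3. Plasma cell genes lie at 14380 or more in NZBW/F1 LSK and at 911 or less in CMPs, and mature neutrophil genes spread from 65.7 to 9056 within CMPs.

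Monocyte and macrophage genes had 3 of 19 called higher and 4 lower (median -0.35), shares below those of all genes (18.8% and 27.0%). Slc40a1, the iron exporter ferroportin of macrophages and erythroid cells, was at 5.16, 14.1 and 48.4 CPM in LSK and 98.1, 132 and 202 CPM in CMPs (3.21 ± 0.34), and Axl, a receptor of macrophages, was lower by -2.10 ± 0.39. Against B6 LSK 3 of 19 were called higher and 0 lower. Axl was at -0.72 there and not called, while Slc40a1 was at 3.90 and called higher. Counts against NZBW/F1 LSK also changed when libraries were left out. The number called higher was 1 without F1-L CMP replicate 3, F1-L LSK replicate 2, F1-P CMP replicate 3, or F1-P LSK replicate 1 or 2. The number called lower was 2 without F1-P CMP replicate 1 or any 1 of the 6 F1-L libraries, and 14 without F1-P CMP replicates 2 and 3 together.

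Megakaryocyte genes had 7 of 21 called higher and 3 lower, where 18.8% of all genes were higher and 27.0% lower. Pf4, platelet factor 4, was at 1.05, 6.66 and 11.9 CPM in LSK and 9.55, 57.8 and 94.7 CPM in CMPs (2.79 ± 0.49), with F1-P CMP replicate 2 highest. Gp5, a platelet glycoprotein, was higher by 1.75 ± 0.25 and the urea transporter Slc14a1 by 1.76 ± 0.15. The thrombin receptor F2r (-1.36 ± 0.32) and the factor Fli1 (-1.0 ± 0.22) were among the lower. The list median of 0.13 turned to -0.12 with scaling by total reads, and 7 genes were lower both without F1-P CMP replicates 2 and 3 and against B6 LSK. Basophil, mast cell and eosinophil genes had 3 of 21 higher and 4 lower (median -0.21), shares below those of all genes (18.8% and 27.0%). The basophil protease Mcpt8 (1.00 ± 0.34) and the IgE receptor subunit Ms4a2 (1.03 ± 0.23) were among the higher, and the interleukin 5 receptor Il5ra (-4.09 ± 0.38) was the lower gene of greatest size. Of 10 stromal and endothelial genes, 4 were lower and 0 higher (median -0.58), with Cdh5 at no more than 0.830 CPM in CMPs.

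Interferon-stimulated genes, Ly6a again among them, were lower in CMPs in 20 of 29 cases and higher in 2, with a median of -0.96. Ifitm1 was at 77.1, 117 and 190.2 CPM in LSK and 6.68, 21.1 and 35.9 CPM in CMPs (-2.79 ± 0.38), and the RNA sensor gene Ddx58 at 87.6, 103 and 143 and 11.5, 23.0 and 35.5 CPM (-2.25 ± 0.24), both without overlap. Oasl1 (1.21 ± 0.19) and the sensor gene Ifih1 (0.59 ± 0.12) were the genes higher in CMPs. The Ifih1 call was lost without F1-L CMP replicate 1, F1-L LSK replicate 1, F1-P CMP replicate 1, or F1-P LSK replicate 1 or 2, at log2 fold changes of 0.53 to 0.58. Against B6 LSK 22 of 29 were lower and 0 higher. Of 27 cytokine receptor genes, 15 were lower and 2 higher (median -0.76). Epor and the interferon gamma receptor Ifngr1 (0.89 ± 0.09) were higher, and Il18r1 (-3.83 ± 0.29) and Il18rap (-2.12 ± 0.33), subunits of the interleukin 18 receptor, were lower together with Il7r.

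The last question was whether the step from LSK to CMP differed between prediseased and diseased mice. Of the 6019 genes called in F1-P, 5209 were called in the same direction in F1-L, which is 86.5% of the F1-P calls and 72.5% of the 7189 F1-L calls. There were 2259 genes higher and 2950 lower in CMPs at both stages, and 23 were called in opposite directions. The differences of the 2 stages had a Pearson correlation of 0.83 across 14523 genes, which are not independent replicates. The erythroid median was 3.02 in F1-P and 2.53 in F1-L, the stem cell median -1.29 and -1.64, the S phase median 1.23 and 1.33, and the plasma cell median -4.25 and -4.06. Other lists shifted or changed sign between the stages. The granulocyte-monocyte median was 0.76 in F1-P and -0.86 in F1-L, the monocyte and macrophage median 0.99 and -1.50, with 5 higher and 1 lower in F1-P and 1 higher and 13 lower in F1-L, the sort gene median -0.16 and -2.19, and the globin and maturation median 2.72 and 0.58. In F1-P, the monocyte and macrophage genes called higher were 13 without F1-P CMP replicate 1, 3 without F1-P CMP replicate 2 or 3 or F1-P LSK replicate 1 or 2, and 1 without F1-P CMP replicates 2 and 3 together. The number called lower there was 0 to 2 when 1 library was left out, and in F1-L it was 8 without F1-L LSK replicate 1.

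No gene passed the test of the difference between stages by limma (0 of 14523 called, 0%, smallest adjusted p = 0.143). At an unadjusted p below 0.05 there were 1166 genes, 863 with a more negative difference in F1-L (5.94%) and 303 with a more positive one (2.09%). All 15 mature neutrophil genes, 12 of 30 granulocyte-monocyte genes and 11 of 19 monocyte and macrophage genes were among the negative ones. So were 6 of 10 MHC class II, 6 of 12 B cell, 5 of 15 sort and 4 of 12 plasmacytoid dendritic cell genes. The summed mature neutrophil level differed between F1-P CMP libraries (321 to 9056 RPM). It also differed between F1-P LSK (366 to 1542 RPM) and F1-L LSK (2530 to 15337 RPM). The source of the negative differences was not tested. edgeR's quasi-likelihood test also gave 0 calls, its likelihood ratio test gave 422 and DESeq2 429. Without F1-P CMP replicate 1, the library low in neutrophil genes, limma called 577 genes, 561 of them negative, and without F1-P LSK replicate 3 it called 1.

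The 5 genes with the smallest p were Emilin2, Sqor, Tinagl1, Adam33 and Pid1. Emilin2, an extracellular matrix glycoprotein, was at 16.0, 18.6 and 26.1 CPM in F1-P LSK, 73.8, 74.2 and 71.2 CPM in F1-L LSK, 106, 99.7 and 91.0 CPM in F1-P CMPs and 109, 129 and 106 CPM in F1-L CMPs. Its CMP levels overlapped between stages while every F1-L LSK sample was above every F1-P LSK sample, and the difference between stages was -1.62 ± 0.21. Sqor, the sulphide quinone oxidoreductase of mitochondria, was at 7.48, 7.45 and 10.7 CPM in F1-P LSK, 32.9, 20.7 and 17.8 CPM in F1-L LSK, 19.2, 25.8 and 25.8 CPM in F1-P CMPs and 15.9, 14.7 and 14.7 CPM in F1-L CMPs, a difference of -1.94 ± 0.32 (limma adjusted p = 0.254). Tinagl1 (-2.02 ± 0.34), Adam33 (-1.25 ± 0.22) and Pid1 (-2.88 ± 0.52) each had the same limma adjusted p of 0.254, and Adam33 was at no more than 1.56 CPM in any sample. None of these 5 passed the threshold.

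**Figure D5:**
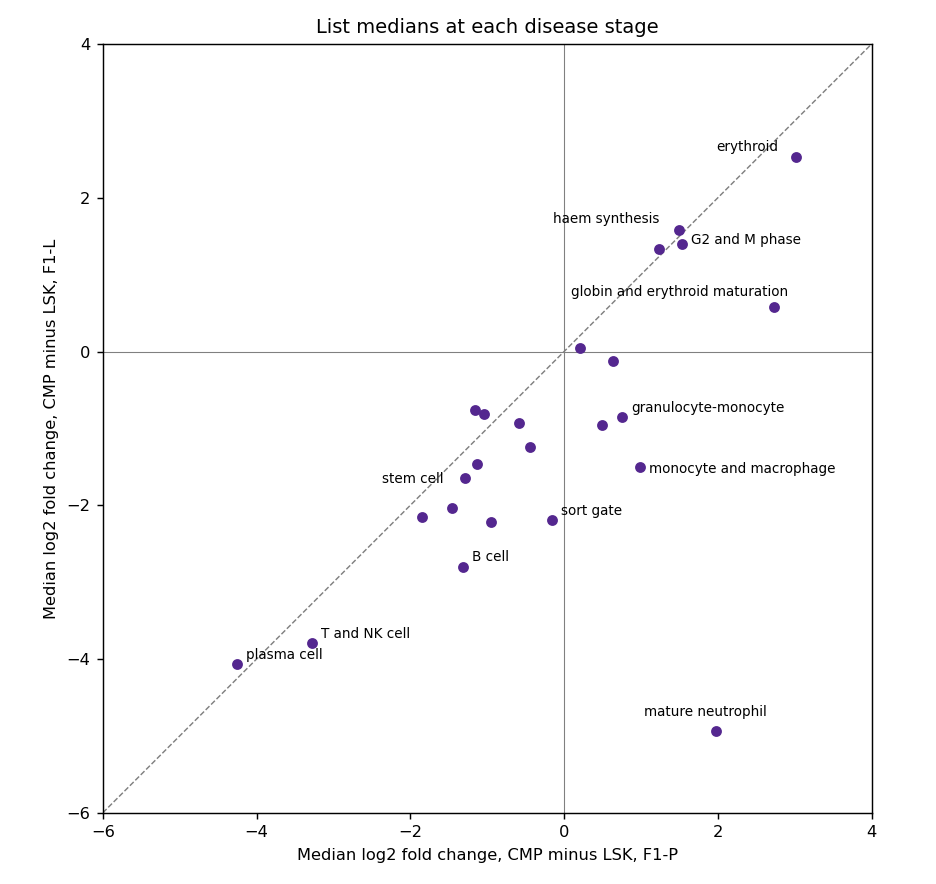
Median log2 fold change (CMP minus LSK) of each gene list in F1-P (horizontal axis) against F1-L (vertical axis), with 1 point per list, some of them named, and the line of equality dashed. Most lists lie near the line, and the mature neutrophil list lies far below it, at 1.97 in F1-P and -4.93 in F1-L.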

How the data were processed

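RNA was measured in sorted LSK and CMP of NZBW/F1 mice, 12 samples grouped by their labels. According to the study's methods, the authors extracted RNA with a NucleoSpin kit, prepared TruSeq libraries, sequenced single-end reads, aligned them with STAR 2.6 (per the submitters' processing notes) to mm10 (GRCm38), counted reads per gene with HTSeq and used edgeR. The deposited values are a signal, the CPM of a library size scaled by a normalization factor, in 1 table for LSK (19780 genes) and 1 for CMPs (18428 genes). The deposited values of each column were whole multiples of 1 step, and 100% came out as whole reads within 0.05 of a step, so reads were recovered and rescaled together.

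The 17569 genes in both tables were joined, 183 immunoglobulin genes were dropped, and the remaining 17386 were scaled by TMM. Genes of 1 table (859 in CMPs, 2211 in LSK) could not be compared. Genes that reached a CPM of 1 in 3 or more of the samples were fitted by limma 3.58.1 (lmFit, eBayes with a trend) on log2(CPM + 1) in R 4.3.3, for both stages with stage as covariate, for each stage, and for the difference between stages. Same-numbered LSK and CMP samples deviated together in F1-P, with correlations of 0.112 to 0.18 in all 3 pairs against -0.152 to 0.0527 for other pairs, and not in F1-L, and the labels give the numbers without saying what they share. Within-compartment pairs of libraries all differed by more than sampling noise. edgeR 4.0.16 and DESeq2 1.42.0 were run on the recovered reads as alternatives, and the fit was tested on simulated data. Symbols came from GENCODE M21. Summed list levels are given as RPM, recovered reads per 1000000 joined reads.

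The samples and the 24 gene lists were chosen with earlier results of these data known. The lists have 509 members but hold 471 different genes, so some genes count in more than 1 list. Of the 471 genes, 439 were tested, 10 were below the filter, 11 were in 1 table and 11 in neither. Genes were named by a rule: sort genes, 25 lineage and cell cycle regulators, the 10 largest called differences each way among genes with a mean CPM of 5 or more whose cell types did not overlap, up to 3 called genes each way per list, and the 5 genes with the smallest p for the difference between stages. Genes named outside it, after their values were seen, were Tal1, Zfpm1, Rhd, Rhag, Kel, Fgd5, Robo4, Prdm16, Hbb-bs, Hba-a1, S100a8, Ltf, Camp and those of 1 table alone. Some genes that the rule names are not reported here.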

Additional observations from a re-analysis of the deposited data

Results flagged for a closer look

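Immunoglobulin genes were left out of the comparison, and their reads set LSK of NZBW/F1 mice apart. They held a median of 35.1% of the reads in F1-P LSK and 21.6% in F1-L LSK, against 0.301 to 4.76% in B6 LSK and 0.0152 to 0.255% in CMPs. The part of these reads in the lower level of other genes was not tested.

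Some genes were in the LSK table alone and so entered no comparison. Of 2114 such genes without immunoglobulin genes, 31 had a mean of at least 5 RPM (reads per 1000000 joined reads). Nox1, an NADPH oxidase, had a median of 22.5 RPM over the 6 NZBW/F1 LSK samples, with 11.1 to 85.6 there and 0.637 to 1.93 in B6 LSK. Gpm6a had a median of 23.8, Spag6 of 16.3, Bmp6 of 14.6 and Rims2 of 10.4 RPM, and each was higher in every NZBW/F1 LSK sample than in every B6 LSK sample. Their level in CMPs is not known from the deposited table.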

How the results depend on the processing

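Results were recomputed under 31 alternatives, 12 of which left out 1 library. Of the 115 named genes called different, 90 kept their call and direction under every alternative run. The calls most often lost were those of Hmox1 (15 alternatives), Apoe (14), Mrc1 (12), Vwf (11), F13a1 (10) and Ifih1 (10). Cell type cannot be told apart from table, and genes near the filter rest on few reads.

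Leaving out 1 library gave 6275 to 7128 calls for CMP against LSK, 5302 to 6752 in F1-P, 6330 to 7412 in F1-L and 0 to 577 for the difference between stages. That last count was 422 with edgeR's likelihood ratio test, 429 with DESeq2 and 1478 with array quality weights, whose estimation did not fully converge. Without a fold minimum CMP against LSK gave 10469 calls. Scaling by total reads lowered the share of calls higher in CMPs from 41.0% to 31.1%, and the authors' own scaling raised it to 47.4%. Without F1-P CMP replicates 2 and 3, chosen after seeing the data, the counts were 7843, 7559, 7439 and 0.

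Genes whose sign turned had differences near 0 or depended on the reference. Cd48 was at 0.0025 with median-of-ratios scaling, 0.048 with the authors' scaling, 0.039 with immunoglobulin genes kept, 0.0087 with edgeR's quasi-likelihood test, 0.0087 with its likelihood ratio test and 0.070 with quality weights. Cebpa was at 0.013 with the authors' scaling, 0.0041 with immunoglobulin genes kept, 0.081 and 0.086 with the edgeR tests and 0.051 with DESeq2. Cd34 was at -0.063 with total reads, -1.18 against B6 LSK and -0.17 without the 2 CMP libraries, where Fcgr2b was at -0.39. Against B6 LSK, Ly6c1 was at 1.17, Ly6c2 at 0.21, Cyp11a1 at 0.13 and Mrc1 at 0.52. Leaving out 1 library gave -0.18 to 0.068 for Cd48, -0.36 to 0.23 for Cebpa, -0.61 to 0.31 for Cebpe, -0.12 to 0.27 for Cd34 and -0.080 to 0.44 for Fcgr2b. The cause was not tested.

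LSK and CMP samples share replicate numbers. Same-numbered samples deviated together in F1-P, where all 3 correlations were above 0.1 (0.112 to 0.18), and not in F1-L (-0.131 to 0.144). With the replicate number as a block the counts were 6625, 6012, 7153 and 0. Within F1-P the block moved the mature neutrophil genes called higher from 1 to 5.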

Other observations

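The CMP table held 859 genes that the LSK table did not, of which 19 had a mean of at least 1 RPM (1 read per 1000000 joined reads) and 1 of at least 5. That gene was Mc2r, the receptor of adrenocorticotropic hormone. It was at 4.17, 3.51 and 2.07 RPM in F1-P CMPs and at 7.43, 6.75 and 7.35 in F1-L CMPs, from 51 to 158 reads per library, so the 3 F1-L samples were all above the 3 F1-P samples. It was chosen after its values were seen, and its level in LSK is not known from the deposited table.

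Mitochondrial genes held 1.64 to 2.52% of the reads in CMPs and 0.794 to 1.22% in NZBW/F1 LSK, with no overlap. These totals include the immunoglobulin reads, which were 16.8 to 36.6% of NZBW/F1 LSK reads and lower the LSK share. In B6 LSK the share was 1.02 to 1.75%, which overlapped that of CMPs.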
